A study of Saccharomyces cerevisiae with 593 samples.

Results

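Wild-type cells of the budding yeast Saccharomyces cerevisiae were shifted to 42 °C, and their RNA was compared with that of untreated wild-type cells on 2-colour arrays after 5, 10, 20 and 40 min. These heat shock arrays make up 20 of the 593 arrays of the series. They were chosen by their titles, as every array that sets heat-shocked wild-type RNA against RNA of untreated or mock-treated wild-type cells. They fall into 3 courses. Course 1 hybridised heat-shocked RNA of each time against an untreated control of that same time in both dye orientations. Course 2 used the same kind of control with the heat-shocked RNA in Cy5 only, and course 3 used an untreated control of time 0 in both orientations. There are thus 12 arrays with a control of the same time and 8 with a control of time 0. After the dye orientations were averaged, each course gave 1 value per oligo and time. The labels give no strain background, medium or temperature of the control cells, and do not say whether the courses were separate cultures, so the spread between courses may be partly technical. The type of control and the course cannot be told apart, since every array with a time 0 control belongs to course 3.

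Heat unfolds proteins, and yeast answers with 2 broad programmes. The heat shock factor Hsf1 drives chaperone genes, whose products refold, hold or disaggregate damaged proteins. The stress factors Msn2 and Msn4 drive a wider set of protective genes, and most genes for ribosomal proteins and ribosome assembly are lowered for a time in the same cells. Many yeast ribosomal protein genes contain an intron, and the array carries several oligos for most of them.

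Each array holds 9216 spots, which are 1536 oligos in 6 copies. Of these, 1457 oligos carry a gene name and together read 982 genes. A total of 747 genes have a single oligo and 231 have 3 or 4, numbered here by their place on the array. Which exon, intron or splice junction an oligo reads is not given in the sources used here. Values are the deposited log2 ratios, with heat-shocked RNA over control, so that 1 stands for a ratio of 2. The array medians of the heat shock arrays lay between -0.03 and 0.05, so each value is relative to the typical oligo of its array. Between 0.141% and 7.76% of spots had no value. The 2 orientations of course 1 correlated with r between 0.46 at 5 min and 0.81 at 40 min across oligos, and those of course 3 with r between 0.66 at 5 min and 0.92 at 40 min. In course 1 the heat-in-Cy3 arrays were the widest, with an SD over oligos of up to 0.878, against 0.621 to 0.636 on its heat-in-Cy5 arrays of 20 and 40 min. Course 2 had an SD of 0.422 to 0.492, wider than the averaged course 1 at 5 min (0.492 against 0.420) and narrower from 10 min on. The tests below use the mean of courses 1 and 2 (n = 2), with limma's moderated test over all named oligos and a Benjamini-Hochberg adjusted p under 0.05. Their error comes from 116 residual degrees of freedom over all replicated groups of the series, not from the heat shock courses alone. Course 3 was left out of these tests and serves as a separate readout.

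In the tests on courses 1 and 2 together, the number of called oligos grew from 5 to 40 min. More of these oligos were lower than higher at each of the 4 times. The single courses did not all widen. From 5 to 40 min, 68, 108, 174 and 183 oligos lay beyond 1 in size in course 1. The numbers were 77, 34, 35 and 43 in course 2, and 68, 59, 87 and 72 in course 3. After 5 min 62 oligos were higher and 111 lower than in the control, or 11.9% of the named oligos. The counts were 99 higher and 161 lower at 10 min (17.8%), 367 at 20 min (25.2%), of which 232 were lower, and 405 at 40 min (27.8%), of which 252 were lower. In all, 546 oligos passed at 1 or more times and 68 at all 4 times, of which 26 were higher and 42 lower. No oligo was higher at one time and lower at another, by these limma calls. Of the 62 oligos higher at 5 min, 37 also passed at 40 min, and of the 111 lower at 5 min, 44 did. With course 1 left out, so that 1 array a time remained, 9.13%, 1.24%, 0.961% and 2.4% of oligos passed from 5 to 40 min. More of these oligos were higher than lower at each time, so the excess of lower calls was not met in course 2 alone. With 1 array a time, these calls cannot show whether that excess was absent. The ribosomal protein oligos had medians of -0.33 and -0.36 in course 2 at 20 and 40 min, against 0.01 over all named oligos. With course 2 left out the shares were 3.43%, 9.4%, 18.1% and 19.7%, with more lower than higher oligos at each time. A ratio in bulk RNA cannot tell fewer cells with a transcript from less of it per cell.

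Cytosolic chaperone genes held the highest mean of all named oligos at each of the 4 times. The array carries 12 oligos for 10 of them. Of the 12, 6 rose at 5 min and 8 rose at 10, 20 and 40 min, against 4.26%, 6.79%, 9.27% and 10.5% of all named oligos higher at those times. The list's median log2 ratio was 1.05, 1.85, 1.55 and 1.87 from 5 to 40 min, against medians of 0.03 to 0.05 over all named oligos. Without course 1, 5, 4, 3 and 4 of the 12 passed.

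HSP104 encodes the disaggregase that pulls proteins out of aggregates. Its log2 ratio was 3.68 in course 1, 3.03 in course 2 and 4.70 in course 3 at 5 min. At 20 min the values were 5.49, 2.41 and 3.79, and at 40 min 5.24, 2.57 and 3.41. The course 1 value at 20 min joins 6.82 with heat RNA in Cy3 and 4.15 with heat RNA in Cy5. All 12 values of this gene were above 2, with course 1 highest from 10 min on. The mean of courses 1 and 2 was 3.35 ± 0.46 at 5 min and 3.95 ± 2.17 at 20 min (SD, n = 2; limma adjusted p = 7.5e-05 and 2.0e-06). Without course 1 its calls at 10, 20 and 40 min were lost.

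SSA4, the stress-inducible cytosolic Hsp70, was at 3.70, 3.53 and 4.76 at 5 min in courses 1, 2 and 3. It was still at 4.08, 2.42 and 3.38 at 40 min. In courses 2 and 3 the highest value of SSA4 was the one at 5 min. The limma adjusted p of SSA4 lay between 3.8e-07 at 20 min and 1.1e-09 at 5 min. SIS1, an Hsp40 partner of Hsp70, followed a similar course, with 2.57, 1.91 and 3.03 at 5 min and 2.64, 1.44 and 1.65 at 40 min (limma adjusted p = 1.8e-06 and 3.5e-06). SSE2, an Hsp110 that reloads Hsp70 with ATP, was at 1.69, 1.77 and 2.46 at 5 min and 1.52, 1.07 and 1.57 at 40 min, and passed at all 4 times. SSA4 kept its calls when either course was left out. Without course 1 those of SIS1 at 20 and 40 min and of SSE2 from 10 min on were lost.

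Of the other Hsp70 genes and the Hsp90 gene HSC82, SSA1 and SSA3 passed from 5 min on, and SSA2 and HSC82 from 10 min on. SSA2, a constitutive cytosolic Hsp70, was at 0.74, 1.29 and 1.26 at 5 min, which did not pass (limma adjusted p = 0.11). Its values were 2.18, 1.66 and 1.72 at 10 min, 3.71, 1.90 and 2.69 at 20 min, and 3.97, 2.05 and 2.24 at 40 min (limma adjusted p = 8.1e-09 at 40 min). SSA3 was at 1.12, 1.68 and 1.83 at 5 min and 2.85, 2.03 and 2.10 at 40 min, and its means of 1.40 ± 0.40 and 2.44 ± 0.58 (SD, n = 2) both passed. HSC82, the more constant of the pair of Hsp90 genes, was at 1.04, 0.66 and 1.69 at 5 min (limma adjusted p = 0.11) and at 2.45, 1.46 and 2.45 at 40 min (limma adjusted p = 3.6e-06). SSA1 rose at all 4 times, to a mean of 1.97 at 10 min. Its value of 1.20 in course 1 at 20 min joins arrays that differ, with -0.24 with heat RNA in Cy3 and 2.63 with heat RNA in Cy5. Without course 1 the calls of HSC82 and those of SSA2 at 10 and 20 min were lost, and the call of SSA1 at 5 min was lost without either course. The SSA genes are close copies of each other, and how far their oligos tell them apart was not tested.

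A pair of chaperone oligos went the other way by a small amount. SSB1, the ribosome-bound Hsp70, was at -0.26, -0.49 and -0.47 at 10 min in courses 1, 2 and 3 (limma adjusted p = 0.048) and did not pass at the other times. Oligo 1 of GIM5, a prefoldin subunit, was at -0.54, -0.34 and -0.36 at 40 min (limma adjusted p = 0.017). Both calls were lost when either course was left out.

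**Figure D1:**
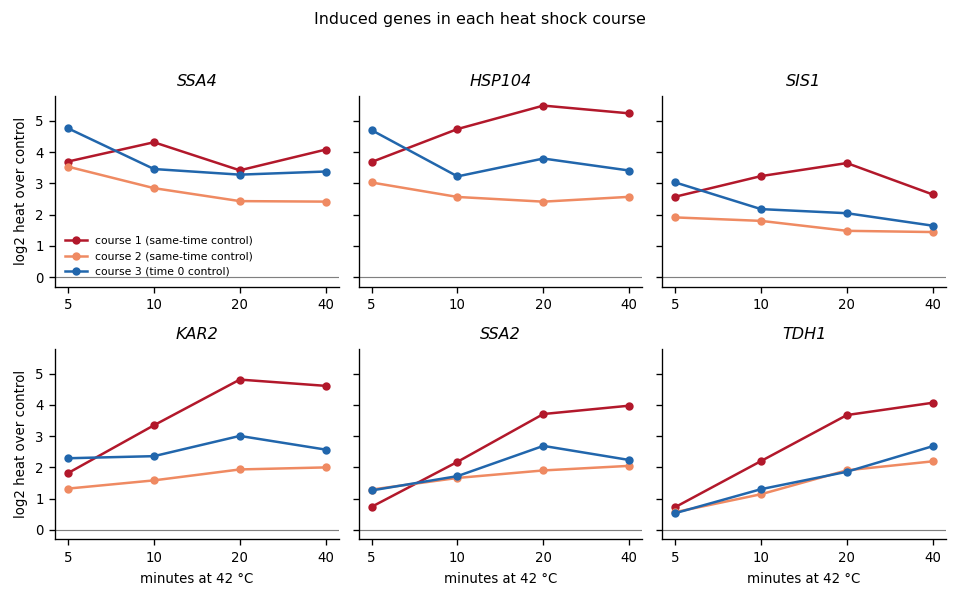
Log2 ratio of heat-shocked over control RNA (y axis) against minutes at 42 °C (x axis) for SSA4, HSP104, SIS1, KAR2, SSA2 and TDH1, with a line for each of the 3 courses. HSP104 and SSA4 were above 2 in each course from 5 min on, while TDH1 was between 0.53 and 0.73 at 5 min and between 2.19 and 4.07 at 40 min.

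Among genes of the endoplasmic reticulum KAR2 rose at all 4 times and HAC1 from 10 min on, while the others did not pass. KAR2, the Hsp70 of that compartment, was at 1.82, 1.32 and 2.29 at 5 min in courses 1, 2 and 3, and at 4.81, 1.93 and 3.01 at 20 min. Its mean of courses 1 and 2 was 1.57 ± 0.35 at 5 min and 3.37 ± 2.03 at 20 min (SD, n = 2; limma adjusted p = 2.1e-04 and 3.9e-15). HAC1 encodes the transcription factor of the unfolded protein response, and the kinase Ire1 splices its mRNA. HAC1 oligo 1 was at 0.18, 0.07 and -0.29 at 5 min, at 1.31, 0.96 and 1.35 at 20 min, and at 1.82, 1.12 and 1.5 at 40 min (limma adjusted p = 0.79, 2.8e-05 and 5.5e-08). HAC1 oligo 2 was at -0.36, -0.89 and -0.96 at 5 min (limma adjusted p = 0.053) and at 1.06, 0.71 and 0.87 at 40 min (limma adjusted p = 0.0014). HAC1 oligo 3 did not pass at any time, with 0.32, 0.43 and 0.83 at 40 min. LHS1, a helper of KAR2, and IRE1 lay between -0.11 and 0.22 in every course and did not pass. Of the 6 oligos of this list, 1, 2, 2 and 3 rose from 5 to 40 min, against 4.26%, 6.79%, 9.27% and 10.5% of all named oligos. KAR2 kept its calls without either course, while those of HAC1 oligo 1 at 10 and 20 min and of HAC1 oligo 2 at 40 min were lost without course 1.

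Of 6 genes listed for the general stress programme, 4, 5, 4 and 4 rose from 5 to 40 min, against the same shares of all named oligos, and none fell. GAC1, which targets a phosphatase to glycogen synthesis, was at 2.65, 2.02 and 2.70 at 5 min and at 2.3, 0.95 and 1.25 at 40 min. PRB1, the vacuolar protease B, was at 1.52, 1.44 and 1.70 at 5 min and at 2.78, 1.17 and 1.35 at 20 min. ALD3, an aldehyde dehydrogenase, did not pass at 5 min with 0.80, 0.28 and 0.75, and was at 2.80, 1.10 and 1.74 at 20 min (limma adjusted p = 0.55 and 0.0012). SDP1, a phosphatase that acts on the kinase Slt2, passed at 5 and 10 min only. Its values were 1.07, 0.56 and 0.79 at 5 min and 0.45, 0.44 and 0.48 at 40 min. YAK1, a kinase that slows growth, passed at all 4 times, with 0.29, 1.23 and 0.45 at 5 min and 0.82, 0.67 and 0.40 at 40 min. RIM4, a meiotic RNA-binding protein in this list, did not pass at any time. Without course 1, 2 of the 6 passed at 5 min and 0 at the later times. Without course 2 the calls of YAK1, and those of PRB1 and SDP1 at 5 min, were lost.

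The glycolytic genes on the array rose from 10 min on. TDH1, a glyceraldehyde-3-phosphate dehydrogenase, was at 0.73, 0.57 and 0.53 at 5 min, at 2.20, 1.14 and 1.3 at 10 min, at 3.67, 1.91 and 1.86 at 20 min, and at 4.07, 2.19 and 2.68 at 40 min. Its mean did not pass at 5 min (0.65 ± 0.11, SD, n = 2; limma adjusted p = 0.46) and was 3.13 ± 1.32 at 40 min (limma adjusted p = 6.3e-08). PGK1, phosphoglycerate kinase, was at 0.55, 0.35 and 0.68 at 5 min and at 2.23, 1.14 and 1.68 at 40 min (limma adjusted p = 0.21 and 1.6e-09). The calls of TDH1 and PGK1 at 10 and 20 min were lost without course 1. These are the only glycolytic genes listed that the array carries.

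Among genes tied to osmotic and cell wall stress, single genes moved and most did not. CIN5, a bZIP transcription factor, was high only at the start. Its values were 1.73, 1.56 and 1.75 at 5 min, 0.69, 0.42 and 0.77 at 10 min, and 0.24, 0.31 and 0.19 at 40 min. The mean of CIN5 was 1.65 ± 0.12 at 5 min (SD, n = 2; limma adjusted p = 7.0e-06) and did not pass at the later times. GPD1, which makes the precursor of glycerol, rose at all 4 times, with 1.36, 1.09 and 1.37 at 5 min and 1.57, 0.90 and 0.88 at 40 min. SLN1, the membrane osmosensor, fell at all 4 times by a small amount, with -0.25, -0.48 and -0.34 at 5 min and -0.35, -0.33 and -0.17 at 40 min. FPS1, the glycerol channel, passed at 5 min only, with 0.24, 0.50 and 0.19 (limma adjusted p = 0.028). ENA1, SKO1, HOG1, SHO1, PBS2 and HAL1 passed at none of the 4 times. Of the 12 genes of this list, 3, 2, 2 and 3 rose from 5 to 40 min and SLN1 alone fell. Of all named oligos 4.26%, 6.79%, 9.27% and 10.5% rose at those times. The list was called in either direction at 33.3%, 25%, 25% and 33.3%, against 11.9%, 17.8%, 25.2% and 27.8% of all named oligos. At 20 min it was not above that either-direction share. The calls of SLN1 and FPS1 were lost when either course was left out, and those of GPD1 without course 1.

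SLT2, the kinase of the cell wall integrity pathway, rose late and with little spread. Its values were 0.15, 0.15 and 0.09 at 5 min, 0.43, 0.26 and 0.40 at 10 min, 0.54, 0.38 and 0.66 at 20 min, and 0.97, 0.81 and 0.92 at 40 min (limma adjusted p = 0.40, 0.0084, 1.6e-04 and 1.2e-12). RLM1, a transcription factor that Slt2 activates, was at 0.45, 0.48 and 0.47 at 40 min and passed only then (limma adjusted p = 0.0067). CUP1-2, a metallothionein, rose at 20 and 40 min, with 2.31, 0.75 and 1.47 at 40 min (limma adjusted p = 0.015). The oligo of CUP1-1, also a metallothionein, did not share this rise. Its means were 0.05, 0.13, 0.20 and 0.24 from 5 to 40 min and passed at no time (limma adjusted p = 0.33 at 40 min). How far these oligos tell the CUP1 genes apart was not tested. CUP2, the other gene of this list, did not pass at any time. Of 9 further stress regulators, ADR1, an activator of genes repressed by glucose, passed at all 4 times, with 0.77, 0.82 and 0.78 at 5 min and 0.89, 0.47 and 0.59 at 40 min, and IFH1, an activator of ribosomal protein genes, passed at 20 and 40 min. The calls of CUP1-2 and those of SLT2 at 10 and 20 min were lost without course 1, and those of RLM1, ADR1 and IFH1 without either course.

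Genes of ribosome assembly fell early. Of 59 oligos for 55 such genes, 18, 24, 19 and 19 were lower from 5 to 40 min, against 7.62%, 11.1%, 15.9% and 17.3% of all named oligos. None was higher at 5 and 10 min, and 2 were at 20 min and 2 at 40 min. The list's median was -0.48, -0.52, -0.38 and -0.33 at these times. Without course 1, 3, 1, 0 and 0 oligos were lower, and without course 2, 4, 21, 12 and 15.

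The low points of single assembly genes differed. SPB1, a methyltransferase of the large subunit precursor, was at -1.81, -1.18 and -1.07 in courses 1, 2 and 3 at 5 min, and at -1.09, -0.54 and -0.34 at 40 min. NSR1, the yeast nucleolin, was at -2.0, -0.97 and -1.42 at 5 min and at -0.34, 0.36 and 0.66 at 40 min (limma adjusted p = 5.1e-05 and 0.97). At 40 min the 3 courses of NSR1 lay on both sides of 0.

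NOP56, NOP58 and NOP1 are core proteins of the box C/D particles that methylate ribosomal RNA, and each had its lowest mean at 10 min. NOP56 was at -0.82, -1.19 and -0.85 at 5 min, at -2.36, -1.62 and -1.29 at 10 min, and at -2.32, -1.38 and -0.97 at 40 min. NOP58 was at -0.78, -1.12 and -0.99 at 5 min, at -2.39, -1.43 and -1.39 at 10 min, and at -1.18, -0.68 and -0.37 at 40 min. The 3 courses of NOP58 were all below 0 at each time. NOP1 was at -2.41, -1.04 and -1.35 at 10 min and at -1.57, -0.15 and 0.09 at 40 min, where it no longer passed (limma adjusted p = 9.8e-05 and 0.052). GAR1, of the box H/ACA particles that make pseudouridine, was at 0.01, -0.05 and 0.76 at 5 min. It rose at 20 min only, with 1.99, 0.55 and 0.89 (limma adjusted p = 4.7e-07). The GAR1 values join arrays that differ. At 20 min heat RNA in Cy3 and in Cy5 gave 3.06 and 0.92 in course 1, and 1.46 and 0.32 in course 3. At 5 min they gave 1.46 and 0.07 in course 3. Without course 1 the calls of NOP56 from 10 min on, of NOP58 at 10 and 20 min, of NOP1 at 10 min and of GAR1 were lost.

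RPA12 and RPA34 are subunits of RNA polymerase I, which makes ribosomal RNA. RPA12 was at -1.36, -1.34 and -0.88 at 5 min, and at -1.11, -0.74 and -0.38 at 40 min. RPA34 was at -1.24, -1.16 and -0.89 at 5 min and at -0.85, -0.65 and -0.48 at 40 min. Both passed at all 4 times, with limma adjusted p between 9.0e-04 and 0.037. Of 20 oligos for 14 RNA polymerase genes, 3, 3, 2 and 2 were lower and 0 higher from 5 to 40 min. The lower shares of 15% at 5 and 10 min and 10% at 20 and 40 min stand against 7.62%, 11.1%, 15.9% and 17.3% of all named oligos, so the list lay below that background at 20 and 40 min.

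Ribosomal protein genes showed 2 different time patterns of calls among oligos of the same genes. Of 330 oligos, 66, 90 and 148 were lower at 5, 10 and 20 min. The lower shares were 20%, 27.3%, 44.8% and 44.5% from 5 to 40 min. Of all named oligos 7.62%, 11.1%, 15.9% and 17.3% were lower at those times. The numbers of higher oligos were 0, 4, 7 and 12 from 5 to 40 min, against 4.26%, 6.79%, 9.27% and 10.5% of all named oligos. The median of all 330 was -0.15, -0.28, -0.44 and -0.44 at these times. Without course 1, 38, 3, 2 and 7 were lower, without course 2, 27, 35, 120 and 112, and with heat RNA in Cy5 only, 72, 105 and 129 at 5, 10 and 40 min.

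A set of 47 oligos, in 47 genes, was lower at 5 min and no longer passed at 40 min. Their medians over the means of courses 1 and 2 were -0.92, -0.59, -0.38 and -0.34 from 5 to 40 min. In course 3, which did not enter the choice, they were -0.86, -0.70, -0.31 and -0.29. A larger set of 128 oligos, in 93 genes, passed at 40 min and not at 5 min. Its medians were -0.13, -0.42, -0.87 and -0.86, and in course 3 -0.21, -0.39, -0.93 and -0.61. A further 19 oligos passed at both times. As the sets were chosen by these calls, the values of courses 1 and 2 are a description. A call at 1 time and none at another is not a test of the change between them. In the direct contrast without a block, 5 of the 330 oligos were higher and 38 lower at 40 min than at 5 min. With the course as a block for courses 1 and 2, these counts were 64 and 79.

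The early drop touched a single oligo in most genes. Of the 98 ribosomal protein genes with 3 or 4 oligos, 64 had an oligo that was lower at 5 min. In 62 of the 64 it was exactly 1 oligo, and in no gene were all oligos lower. At 40 min 83 of the 98 genes had a lower oligo, with exactly 1 in 37, exactly 2 in 42 and all in 3. In 38 genes an oligo of the early set and one of the late set stood side by side. With heat RNA in Cy5 only, 58 genes had exactly 1 lower oligo at 5 min and 26 held one of each set; without course 1 these counts were 38 and 2, and without course 2 they were 27 and 20.

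RPL28, a protein of the large subunit, shows the early pattern. RPL28 oligo 2 was at -1.85, -2.11 and -1.72 in courses 1, 2 and 3 at 5 min, at -1.32, -1.46 and -1.52 at 10 min, at -0.83, -0.91 and -0.76 at 20 min, and at -0.70, -0.76 and -0.30 at 40 min. The course 3 value at 5 min joins arrays that differ, with -0.65 with heat RNA in Cy3 and -2.79 with heat RNA in Cy5. The mean of courses 1 and 2 was -1.98 ± 0.18 at 5 min (SD, n = 2; limma adjusted p = 4.4e-07). RPL28 oligo 1 was at 0.03, 0.09 and -0.29 at 5 min and at -0.70, -0.53 and -0.27 at 40 min (limma adjusted p = 0.83 and 2.0e-04). RPL28 oligo 3 did not pass at any time. Oligo 2 of RPL28 lay below the other oligos of the gene in each course at 5 min, while at 40 min oligos 1 and 2 overlapped.

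RPS13, a protein of the small subunit, also had an oligo with its lowest values at 5 min. RPS13 oligo 3 was at -1.74, -2.16 and -1.68 at 5 min and at -1.15, -1.0 and -0.64 at 40 min. Its course 3 value at 5 min joins -1.15 in Cy3 and -2.21 in Cy5. RPS13 oligo 2 was between -0.03 and 0.29 in every course and time and did not pass. RPS13 oligo 1 was at -0.18, 0.00 and -0.04 at 5 min and at -0.90, -0.65 and -0.62 at 40 min (limma adjusted p = 0.81 and 4.8e-04). RPL22B oligo 3 had the lowest mean of the named oligos at 5 min, with -2.13, -1.93 and -2.14, and stood at -1.24, -0.87 and -0.26 at 40 min. Its call at 5 min was lost without either course, while those of RPS13 oligo 3 and RPL28 oligo 2 at 5 min were kept.

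The late pattern reached a similar size. RPS6B oligo 1 was at -0.38, -0.50 and -0.47 at 5 min, at -1.05, -1.02 and -0.96 at 10 min, at -2.29, -1.47 and -1.75 at 20 min, and at -2.36, -1.58 and -1.60 at 40 min. RPS6B oligo 2 was at -0.66, -0.51 and -0.37 at 5 min, where it passed (limma adjusted p = 0.027), and at -0.21, -0.17 and -0.06 at 40 min, where it did not. RPS6B oligo 3, of the late set, joins course 1 arrays that differ. Heat RNA in Cy3 and in Cy5 gave -3.50 and -0.55 at 20 min, and -1.95 and -0.36 at 40 min. Course 2 gave -0.33 and -0.34 for that oligo at 20 and 40 min. RPL7A oligo 2 was at -0.25, -0.51 and -0.22 at 5 min and at -2.53, -1.22 and -1.37 at 40 min (limma adjusted p = 0.59 and 3.0e-05). RPL7A oligo 3 was at -0.79, -0.57 and -0.09 at 5 min and at -0.14, -0.18 and 0.08 at 40 min (limma adjusted p = 0.0021 and 0.53). Without course 1 the call of RPL7A oligo 2 at 40 min was lost and that of RPS6B oligo 1 was kept. RPL7A oligo 1 lay between -0.25 and 0.25 in every course and time. Many ribosomal protein genes have a near-identical copy, and oligos of RPL7A or RPS6B may also capture RNA of RPL7B or RPS6A, which was not tested.

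**Figure D2:**
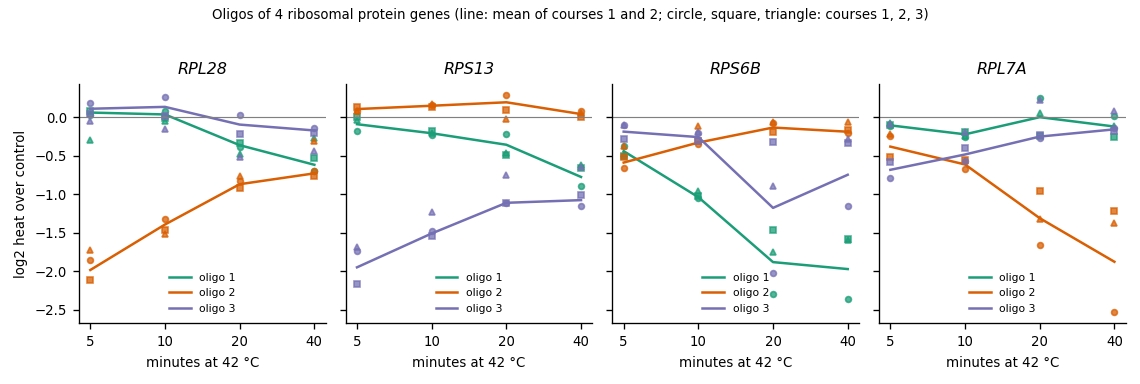
Log2 ratio of heat-shocked over control RNA (y axis) against minutes at 42 °C (x axis) for the oligos of RPL28, RPS13, RPS6B and RPL7A. Lines join the means of courses 1 and 2 and the symbols mark each course. RPL28 oligo 2 and RPS13 oligo 3 were lowest at 5 min, with means of -1.98 and -1.95, while RPS6B oligo 1 and RPL7A oligo 2 were lowest at 40 min, with means of -1.97 and -1.88.

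The same question was put to every gene with 3 or 4 oligos, by testing each oligo against the mean of the other oligos of its gene. Of 702 oligos, 62 stood above and 53 below their gene at 5 min (16.4%). The counts were 45 and 38 at 10 min (11.8%), 93 and 93 at 20 min (26.5%), and 109 and 110 at 40 min (31.2%). These calls fell in 61, 55 and 106 of 231 genes at 5, 10 and 20 min. Among the 98 ribosomal protein genes 47, 42, 71 and 76 held such an oligo, and among the other genes 14, 13, 35 and 47. In course 3, which was not used for the calls, the difference had the same sign for 114 of 115 oligos at 5 min and for 208 of 219 at 40 min. Without course 1, 8.69%, 0.997%, 1.28% and 1.14% of the oligos passed, and without course 2, 3.56%, 3.13%, 21.9% and 26.2%. At 10 min the count was 150 with heat RNA in Cy5 only.

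RPL28 oligo 2 lay below its gene by a difference of -1.96, -2.18 and -1.55 at 5 min in courses 1, 2 and 3 (limma adjusted p = 2.4e-09). At 40 min this difference was -0.28, -0.39 and 0.05 (limma adjusted p = 0.37). RPS6B oligo 1 differed by 0.00, -0.11 and -0.24 at 5 min and by -1.68, -1.33 and -1.43 at 40 min (limma adjusted p = 0.91 and 1.9e-08). Its gene mean includes RPS6B oligo 3, whose course 1 orientations differed. RPL7A oligo 2 differed by 0.20, -0.17 and -0.14 at 5 min and by -2.47, -1.0 and -1.36 at 40 min (limma adjusted p = 0.99 and 8.1e-05). For these 3 oligos the differences at 5 min and at 40 min did not overlap between courses. Without course 1 the call of RPL7A oligo 2 at 40 min was lost and the others were kept.

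Genes outside the ribosome showed the same kind of split. UBC4 encodes a ubiquitin-conjugating enzyme for damaged proteins. UBC4 oligo 1 stood above its gene by 1.01, 0.79 and 0.98 at 5 min and by 2.35, 1.11 and 1.27 at 20 min (limma adjusted p = 0.0014 and 1.8e-09). Its own mean at 20 min was 1.88, against 0.15 for the other UBC4 oligos. IMD4 makes a dehydrogenase of guanine nucleotide synthesis, and its gene hosts a small nucleolar RNA in the intron. IMD4 oligo 1 stood above its gene by 2.17, 1.28 and 1.06 at 10 min (limma adjusted p = 7.1e-06), with its own mean at -0.22 and the other oligos at -1.94. OM14, of the mitochondrial outer membrane, had oligo 1 above its gene by 2.27, 0.87 and 1.44 at 20 min (limma adjusted p = 1.3e-04). Without course 1 the calls of IMD4 oligo 1 and OM14 oligo 1 were lost and that of UBC4 oligo 1 at 20 min was kept.

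Of 28 oligos for 10 ubiquitin pathway genes, 4, 5, 9 and 8 rose from 5 to 40 min, and 1 fell, at 40 min. Of all named oligos 4.26%, 6.79%, 9.27% and 10.5% rose, a smaller share than in this list at each time. The list was called in either direction at 14.3%, 17.9%, 32.1% and 32.1%, against 11.9%, 17.8%, 25.2% and 27.8% of all named oligos. RUB1 oligo 1, of a ubiquitin-like modifier, rose at 20 min with 1.71, 0.04 and 1.51, so that course 2 did not share the change. Of 27 cytoskeleton oligos, 1, 4, 6 and 6 rose, against 4.26%, 6.79%, 9.27% and 10.5% of all named oligos. From 10 min on the share that rose was thus above that of all oligos. Those called in either direction were 3.7%, 14.8%, 25.9% and 25.9%, no more than 1 point above the either-direction share of all oligos at any time. ACT1 oligo 1, for actin, was at 0.32, 0.33 and 0.59 at 5 min and at 1.58, 0.94 and 1.77 at 40 min (limma adjusted p = 0.44 and 6.1e-06). COF1 oligo 2, for the actin-severing cofilin, fell at 20 min with -1.06, -0.62 and -0.77 (limma adjusted p = 0.026). The call of COF1 oligo 2 was lost without either course and that of RUB1 oligo 1 without course 1.

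The lists of RNA processing genes lay near or below the share of all oligos called, except mRNA export at 20 and 40 min. Of 35 mRNA export oligos, 1, 3, 5 and 6 rose and 1, 4, 6 and 8 fell from 5 to 40 min. The list was called at 5.71%, 20%, 31.4% and 40%, against 11.9%, 17.8%, 25.2% and 27.8% of all named oligos. NPL3, an RNA-binding export adaptor, was at 0.16, 0.11 and 0.12 at 5 min and at 1.31, 0.83 and 1.21 at 40 min (limma adjusted p = 9.0e-05). HRP1, which helps to cleave mRNA 3′ ends, was at 0.53, 0.19 and 0.87 at 5 min and at -1.07, -0.79 and -0.73 at 40 min (limma adjusted p = 0.0029). Of 99 splicing factor oligos, 3, 4, 4 and 6 rose and 2, 4, 5 and 6 fell, or 5.05%, 8.08%, 9.09% and 12.1% called. Of the 96 outside the set of oligos that moved with NMD2 oligo 3, described below with the transfer RNA genes, 3, 3, 1 and 3 rose. Of 40 RNA decay oligos, 0, 2, 3 and 3 rose and 2, 5, 4 and 5 fell (5%, 17.5%, 17.5% and 20% called), and 0, 1, 2 and 2 of the 39 outside that set rose. Of 37 oligos for meiotic genes, 1, 0, 2 and 4 rose and 0, 0, 1 and 2 fell.

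Of 64 oligos for transfer RNA genes, 5, 10, 21 and 23 rose from 5 to 40 min, against 4.26%, 6.79%, 9.27% and 10.5% of all named oligos, and 0, 1, 1 and 1 fell. Their share of 7.81% at 5 min was close to that of all oligos. Of the 40 for nuclear genes 22 rose at 40 min, with a median of 0.25 at 5 min and 0.42 at 40 min, while of the 24 for mitochondrial genes 1 rose and 1 fell at 40 min. Without course 1, 8, 2, 4 and 7 of the 64 rose, and without course 2, 0, 3, 9 and 12. A set of 25 oligos moved with these results. It holds NMD2 oligo 3 and the 24 oligos that correlated with it above 0.8 over all replicate values of the series, 4 of them for transfer RNA genes. In that set 0, 11, 25 and 25 oligos rose from 5 to 40 min. The heat values were among those that chose the set, so its rise is a description and not a separate result. Its medians were 0.17, 0.36 and 0.35 at 5 min and 1.63, 0.75 and 1.21 at 40 min in courses 1, 2 and 3. Outside the set 5, 8, 17 and 19 of 60 transfer RNA oligos rose, so most of the transfer RNA calls were of oligos outside it.

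**Figure D3:**
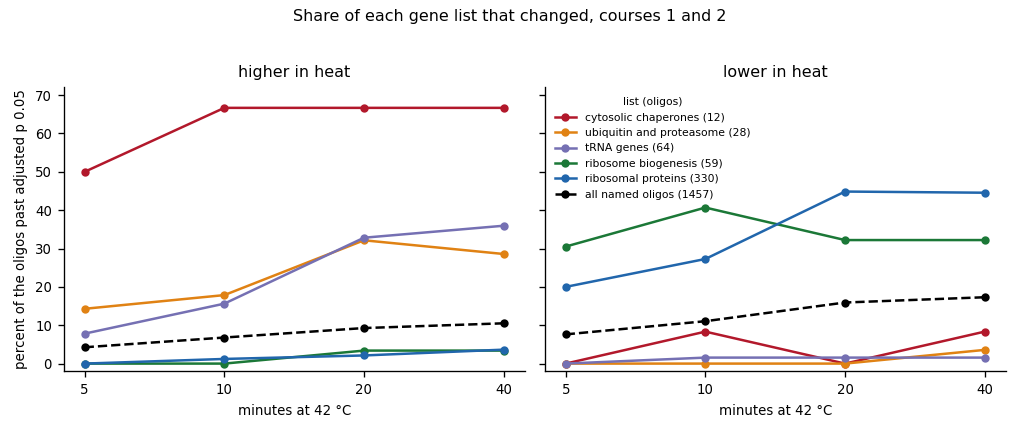
Percent of the oligos of each gene list (y axis) past a limma adjusted p of 0.05 at each time (x axis, minutes at 42 °C), with higher oligos in one panel and lower ones in the other, and all named oligos as a dashed line. Chaperone oligos lay far above the dashed line among the higher ones from 5 min on, with 6 of 12 at 5 min, and ribosome assembly oligos lay above it among the lower ones at 5 and 10 min, with 18 and 24 of 59.

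The change with time was tested directly between times. No oligo passed between 5 and 10 min (0%), between 10 and 20 min (0%) or between 20 and 40 min (0%) in the limma contrasts without a block. At an unadjusted p under 0.05 the counts were 25 (1.72%), 51 (3.5%) and 12 (0.824%). Between 5 and 40 min the log2 ratio became higher for 36 oligos and lower for 46 (5.63%, with 2.47% up and 3.16% down). Of the 330 ribosomal protein oligos, 5 were higher and 38 lower at 40 min than at 5 min. With the course as a block these were 64 and 79 for courses 1 and 2, and 95 and 107 over all 3 courses, so the excess of lower oligos was much smaller in the paired fits. Without course 1 no oligo passed by limma, with 42 at an unadjusted p under 0.05. With the course as a block for courses 1 and 2, the neighbouring times still gave 0, 0 and 0 calls, and the contrast of 40 with 5 min gave 115 and 108. With all 3 courses as blocks the counts were 42 and 30 for 10 with 5 min, 8 and 8 for 20 with 10 min, 0 for 40 with 20 min (96 at an unadjusted p under 0.05), and 250 and 224 for 40 with 5 min.

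Between 5 and 40 min the largest gains were those of TDH1 (2.48), SSA2 (2.00) and KAR2 (1.73), with limma adjusted p of 0.013, 0.029 and 0.013. HAC1 oligo 2 gained 1.51, with limma adjusted p = 0.0010. With the block of courses 1 and 2 the gains of SSA2 and KAR2 did not pass (limma adjusted p = 0.084 and 0.097), and without course 1 they were 0.758 and 0.677. The gain of SSA2 was also not called with heat RNA in Cy5 only, nor that of KAR2 with all 3 courses as blocks (limma adjusted p = 0.19 and 0.051). With the heat shock values fitted alone, the gains of TDH1, SSA2 and KAR2 did not pass (limma adjusted p = 0.14, 0.20 and 0.52). RPS10B oligo 1 had the largest loss, with a contrast of -1.67 (limma adjusted p = 8.2e-04). It was at -0.05, 0.13 and -0.31 at 5 min and at -1.92, -1.34 and -1.02 at 40 min. RPL40A oligo 3 had a contrast of -1.60 and MF(ALPHA)1, the gene of the mating pheromone alpha factor, one of -1.56 (limma adjusted p = 1.5e-04 and 0.0057). With the heat shock values fitted alone, RPL40A oligo 3 and MF(ALPHA)1 did not pass (limma adjusted p = 0.064 and 0.15). MF(ALPHA)1 was at -0.29, -0.04 and -0.46 at 5 min and at -2.35, -1.11 and -1.3 at 40 min. CIN5, which was above its control at 5 min and near it at 40 min, had a contrast of -1.37 (limma adjusted p = 0.025). Of the 205 oligos higher at 1 or more times, 44, 27, 38 and 96 had their highest mean at 5, 10, 20 and 40 min. Of the 341 lower ones, 82, 57 and 69 had their lowest mean at 5, 10 and 20 min, and the others at 40 min.

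Few differences were measured between the types of control. Course 3, with its time 0 control, was set against courses 1 and 2, with controls of the same time. By limma 1 oligo differed at 5 min (0.0686%) and 0 at 10, 20 and 40 min (0%), with 13 (0.892%), 6 (0.412%), 9 (0.618%) and 23 (1.58%) at an unadjusted p under 0.05. The contrast sets 1 course against 2, and these counts do not show that the controls act alike.

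The 1 oligo was that of FIR1, a gene linked to mRNA 3′ end processing. FIR1 was at 2.66 in course 3 against 0.09 and -0.37 in courses 1 and 2 at 5 min, a difference of 2.80 (limma adjusted p = 5.2e-05). At 10 min it was at 1.72 against 0.04 and -0.23, at 20 min at 1.47 against -0.21 and -0.27, and at 40 min at 1.59 against -0.31 and -0.25. Course 3 was above the other courses at all 4 times, though the later differences of 1.82, 1.71 and 1.88 did not pass (limma adjusted p = 0.31, 0.70 and 0.20). Both orientations of course 3 showed it, with 3.15 and 2.17 at 5 min. Its 4 values share the control of time 0.

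Across all named oligos the courses ran in parallel. Course 3 correlated with course 1 by r = 0.89, 0.92, 0.92 and 0.89 from 5 to 40 min, and with course 2 by r = 0.77, 0.85, 0.85 and 0.87. Courses 1 and 2, with the same kind of control, correlated by r = 0.75, 0.81, 0.84 and 0.90. With heat RNA in Cy5 only, the values for courses 1 and 2 were 0.88, 0.91, 0.93 and 0.93. In that setting course 3 correlated with course 1 by r = 0.85, 0.86, 0.88 and 0.85, and with course 2 by r = 0.865, 0.89, 0.90 and 0.89. With heat RNA in Cy5 only, courses 1 and 2 were thus the closest pair at each time. These points are 1457 oligos that share the array design, and they are given as a description.

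The calls from courses 1 and 2 were met by the same sign in course 3. At 5 min 62 of 62 higher and 109 of 111 lower oligos had that sign in course 3, and at 40 min all of the higher and 248 of the 252 lower oligos. Of all named oligos 50.5% were above 0 in course 3 at 5 min. The 252 oligos lower at 40 min had a median of -0.48 in course 3, -0.92 in course 1 and -0.56 in course 2. Over all named oligos at 40 min 72 lay beyond 1 in size in course 3, 183 in course 1 and 43 in course 2. All 67 that did so in both course 3 and course 1 had the same sign.

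**Figure D4:**
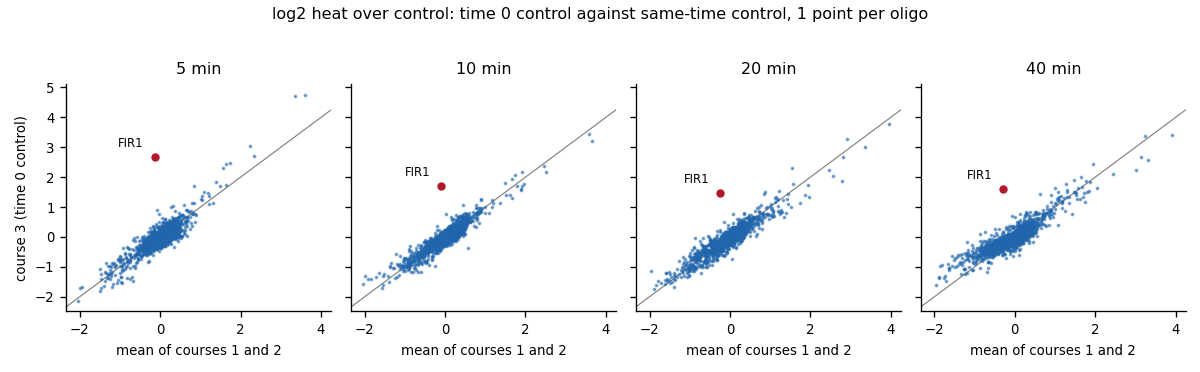
Log2 ratio of heat-shocked over control RNA with a time 0 control (course 3, y axis) against the mean of courses 1 and 2 with a control of the same time (x axis), for each named oligo at 5, 10, 20 and 40 min, with the line of equal values. Most oligos follow the line, and FIR1, at 2.66 in course 3 at 5 min against 0.09 and -0.37 in courses 1 and 2, stands apart at all 4 times.

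The series also holds wild-type cells after 20 min of complete amino acid depletion (n = 2, from 3 arrays) and after 20 min in LiCl (n = 3, from 6 arrays), each over an untreated control of the same time. These set the heat values of 20 min against other stresses. Amino acid depletion has the same identifier prefixes and orientations as courses 1 and 2, and the labels do not state whether the control cells were shared. The LiCl arrays share no prefix with courses 1 and 2, so stress and prefix cannot be told apart in that contrast. The numbers of oligos called against LiCl and against depletion are therefore not comparable.

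Heat and amino acid depletion differed for 47 oligos higher and 44 lower in heat (6.25%, with 3.23% higher and 3.02% lower). KAR2, at 4.81 and 1.93 in heat, was at -0.97 and -1.03 in depletion, a difference of 4.38 (limma adjusted p = 7.9e-13). TDH1, at 3.67 and 1.91 in heat, was at -0.79 and -1.94 in depletion, and SSA2, at 3.71 and 1.90 in heat, was at -0.79 and -1.56. For these 3 genes all heat values were above 0 and all depletion values below it. Of the 12 chaperone oligos 7 were higher in heat. In the other direction, MET28, a regulator of sulfur amino acid genes, was at 0.31 and 0.25 in heat against 4.62 and 3.70 in depletion. HIS4, of histidine synthesis, was at -0.69 and -0.41 in heat against 2.42 and 1.77 in depletion (limma adjusted p = 4.1e-05).

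Heat and LiCl differed for 119 oligos higher and 157 lower in heat (18.9%, with 8.17% higher and 10.8% lower). The 2 main heat chaperones were not among them. HSP104, at 5.49 and 2.41 in heat, was at 4.06, 3.53 and 2.47 in LiCl, a difference of 0.60 ± 0.86 (SE; limma adjusted p = 0.70). SSA4, at 3.42 and 2.43 in heat, was at 3.38, 2.66 and 3.30 in LiCl, a difference of -0.19 ± 0.59 (SE; limma adjusted p = 0.87). The groups overlap for both genes, and these p-values do not show that the stresses act alike.

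Other genes separated heat from LiCl. KAR2, at 4.81 and 1.93 in heat, was at 1.35, 1.66 and 1.04 in LiCl, a difference of 2.02 (limma adjusted p = 2.2e-04), and this call was lost without course 1. ENA1, the sodium and lithium pump, was at 0.49 and 0.17 in heat against 3.24, 2.75 and 2.39 in LiCl (limma adjusted p = 2.5e-06). CIN5 was at 0.35 and 0.36 in heat against 2.44, 1.62 and 2.81 in LiCl. FIR1, which stood apart in course 3, was at -0.21 and -0.27 in heat with a control of the same time, against 1.25, 0.91 and 2.49 in LiCl. MAL13 and MRH4 also differed, but they rest on 1 LiCl replicate, with 0.84, 0.74 and 4.42 for MAL13 and -0.83, -0.43 and -3.51 for MRH4.

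At 20 min the 12 chaperone oligos had a median of 1.55 in heat, -0.14 in amino acid depletion and 1.00 in LiCl. Ribosome assembly oligos had a median of -0.38 in heat, -0.65 in depletion and -0.63 in LiCl. Ribosomal protein oligos had a median of -0.44 in heat, -0.16 in depletion and -0.17 in LiCl. These medians are a description. Against LiCl 2 of the 12 chaperone oligos were higher and 1 lower in heat, and of the 59 ribosome assembly oligos 14 were higher and 1 lower, against 8.17% higher and 10.8% lower of all named oligos. Against depletion 2 ribosome assembly oligos were higher and 1 lower, which at 5.08% is near the 6.25% of all. Against LiCl, 39 of the 330 ribosomal protein oligos were higher and 76 lower in heat, and against depletion 1 and 24.

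**Figure D5:**
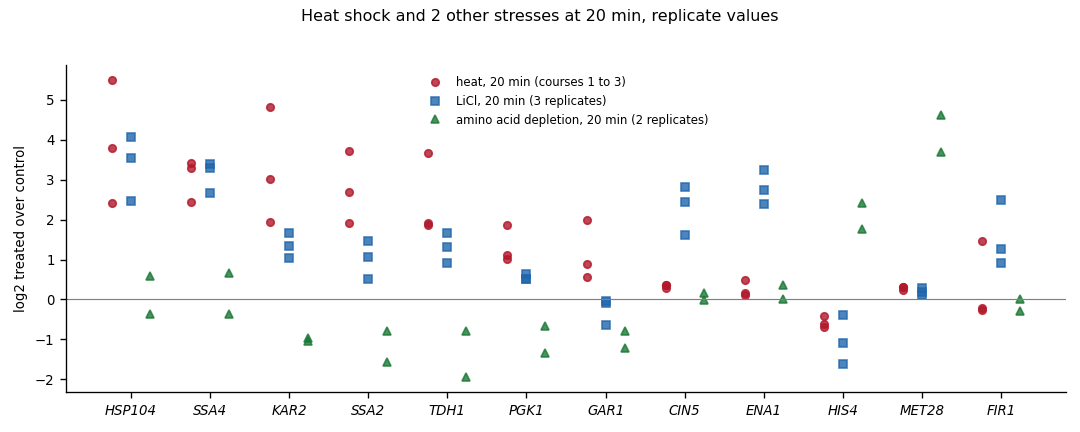
Log2 ratio over the untreated control at 20 min (y axis) for 12 genes in heat, LiCl and amino acid depletion, with a point for each replicate. HSP104 and SSA4 overlap between heat and LiCl, ENA1 and CIN5 are high in LiCl alone, and HIS4 and MET28 are high in amino acid depletion alone.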

How the data were processed

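The deposited values are log2 ratios of channel 1 over channel 2 for each spot; the base of the logarithm is taken as 2, and background correction and normalisation by the authors are not given in the sources used here. Acid phenol yielded the total RNA, per the labels, and aminoallyl nucleotides carried the Cy3 and Cy5 dyes. No intensities or detection calls were used, so the number of arrays limits precision. Gene names come from the platform annotation. Ratios were turned to treated over control. The 6 copies of an oligo were averaged per array, then both orientations of an array identifier.

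One mean per group was fitted over all 593 arrays (311 identifiers, 195 groups, 79 of them with 2 or more replicates), with variances moderated by limma 3.58.1 in R 4.3.3 and Benjamini-Hochberg adjustment over 1457 oligos, or 702 for oligos within genes. The code was tested on simulated data. Python 3.11.15 drew the tables.

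Courses pair the times by their identifier prefix. As a check, deviations of courses 1 and 2 from their mean correlated between times by 0.17 (5 and 40 min) to 0.85 (20 and 40 min). Blocked fits were therefore run beside those without a block.

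Named oligos are, per comparison, the 5 highest and 5 lowest past the threshold at each time with the same sign in both courses, the 3 highest and 3 lowest of each other contrast, all oligos of the stress lists, and the 2 highest and 2 lowest of each other list at 20 min. Other oligos of the same genes, and those with no call named for contrast, were added after their values were seen. The members and lists were chosen with earlier results of these data known. No mitochondrial chaperone gene of the list is on the array.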

Additional observations from a re-analysis of the deposited data

Results flagged for a closer look

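Differences between times were met for 82 oligos between 5 and 40 min. Of the named ones, RPS10B oligo 1 (-1.67), RPL40A oligo 3 (-1.60) and MF(ALPHA)1 (-1.56) were lower at 40 min than at 5 min, and TDH1 (2.48), SSA2 (2.00) and KAR2 (1.73) higher, all on the log2 scale. With the heat shock values fitted alone, RPS10B oligo 1 was the only one of these to pass (limma adjusted p = 0.025). All 82 calls were lost without course 1, where the contrasts of TDH1, SSA2, KAR2 and MF(ALPHA)1 were 1.63, 0.758, 0.677 and -1.07.

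Between the types of control 1 oligo differed at 5 min, that of FIR1, by 2.80. It stood between 2.49 and 3.66 under the alternatives run, and its call was kept in each of them. The value of 3.66 comes from taking the median of the copies in place of their mean. No heat shock, LiCl or amino acid depletion group compared here had 4 or more replicate values, so single samples were not tested as outliers.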

How the results depend on the processing

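No named value past the threshold changed direction in the alternatives run. The direction of the other calls was not checked. Shares of tested oligos past a limma adjusted p of 0.05 moved by over 1.5 times as follows. With heat RNA in Cy5 only, a setting chosen after seeing the data, they were 21% at 5 min, 2.26% for 40 with 5 min and 21.4% within genes at 10 min. With course 3 as an added replicate the share at 10 min was 29.6%. With the heat shock values fitted alone, 40 with 5 min gave 0.48%. Within genes at 10 min, subtracting the dye effect gave 6.55%, and leaving out the noisiest oligos gave 12% of fewer oligos tested (54 calls). With the replicate block, the pairing by course gave 15.3% for 40 with 5 min in courses 1 and 2, and 32.5%, 4.94% (10 with 5 min) and 1.1% (20 with 10 min) over all 3 courses. Heat against amino acid depletion gave 17.2% with the prefix as replicate block. Leaving out course 1 or 2 gave 3.43% to 9.13% at 5 min, 1.24% to 9.4% at 10 min, 0.961% to 18.1% at 20 min, 2.4% to 19.7% at 40 min, 0% to 5.56% for 40 with 5 min, 0% to 0.206% for 20 with 10 min, 0% to 0.0686% for the control types at 20 min, 1.78% to 8.79% against amino acid depletion and 5.42% to 13.7% against LiCl. Within genes it gave 3.56% to 8.69%, 0.997% to 3.13%, 1.28% to 21.9% and 1.14% to 26.2% from 5 to 40 min. The lone course is then assumed to vary like the other groups. The causes of these shifts were not tested. Of 175 named values past the threshold, 55 stayed past it in each alternative run and 120 were lost in 1 or more. No intensities were used, so signal over background is unknown.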

Other observations

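The 24 oligos that correlated above 0.8 with NMD2 oligo 3 over the series include oligos for SME1 and DIB1, of splicing particles, the serine transfer RNA gene SUP61, and QCR10 oligo 2, of respiratory complex III. SME1 was at 0.19, 0.36 and 0.33 in courses 1, 2 and 3 at 5 min and at 1.81, 0.87 and 1.33 at 40 min. QCR10 oligo 2 was at 0.24, 0.39 and 0.29 at 5 min and at 2.08, 1.21 and 2.00 at 40 min. The other 21 oligos of the genes of this set, NMD2 included, had a median of 0.12 at 40 min. As the set was chosen from these values, they are a description without a test.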
